A study of Mus musculus with 4 samples.

Results

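The tetraspanins are small membrane proteins that cross the membrane 4 times and gather partner proteins into surface and endosomal microdomains. The 10 described here are Cd9, Cd37, Cd53, Cd63, Cd81, Cd82, Cd151, Tspan13, Tspan31 and Tspan33, taken by symbol from a count table of 27179 genes. All 10 had a row of their own and all 10 passed the filter on low counts, as did 11706 genes in all. The RNA came from plasmacytoid dendritic cells (pDCs), the type I interferon-producing cells of the dendritic lineage. Bone marrow precursors of C57BL/6 mice were cultured in Flt3 ligand for 8 days, and imiquimod, a small-molecule TLR7 ligand, was then given at 1 µg/ml for 24 h. Cells were sorted by SiglecH and CD11b and then split by BFP, a blue fluorescent reporter of the chemokine gene Cxcl10. There were 2 libraries of BFP-positive and 2 of BFP-negative cells, and all 4 carried the same Flt3 ligand culture and imiquimod treatment. The labels leave unclear which side of CD11b was kept, where the BFP gate lay and which reporter allele was used, and a population label of the BFP-negative cells calls them CXCL10+ while the design text of the series calls them CXCL10-. No label says that the replicates came from separate animals or cultures, so p-values measure the spread between these libraries.

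Tetraspanins bind each other and partners such as integrins, immunoglobulin-family receptors and the protease Adam10, and palmitoylation helps to hold these assemblies together. Some act mainly at the cell surface, while Cd63 sits in late endosomes and lysosomes and is a common marker of extracellular vesicles. In leukocytes they are known for tuning adhesion, receptor traffic and antigen presentation, and Cd9 has been used as a surface marker that divides mouse pDCs.

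Cd53, Cd9 and Tspan33 were the tetraspanins that rose in BFP-positive cells, and their promoter sequences are shown for that reason. Each is the stretch of 250 bases that ends just before the RefSeq gene start, written 5′ to 3′ on the gene's strand, from RefSeq on GRCm38.p6. The windows are chr3:106790150-106790399 on the minus strand for Cd53, chr6:125494761-125495010 on the minus strand for Cd9 and chr6:29693964-29694213 on the plus strand for Tspan33. Capitals mark matches, on either strand, to a PU box, a GC box or an NF-kB motif.
Cd53: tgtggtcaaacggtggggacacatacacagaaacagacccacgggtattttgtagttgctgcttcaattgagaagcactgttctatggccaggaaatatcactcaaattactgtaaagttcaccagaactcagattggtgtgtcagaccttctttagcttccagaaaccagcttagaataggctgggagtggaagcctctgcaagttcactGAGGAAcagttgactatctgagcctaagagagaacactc
Cd9: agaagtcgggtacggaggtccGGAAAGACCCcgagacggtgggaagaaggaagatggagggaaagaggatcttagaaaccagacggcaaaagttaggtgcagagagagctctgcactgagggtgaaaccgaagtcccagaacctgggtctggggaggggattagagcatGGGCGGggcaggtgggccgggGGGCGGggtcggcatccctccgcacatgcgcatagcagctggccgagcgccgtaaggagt
Tspan33: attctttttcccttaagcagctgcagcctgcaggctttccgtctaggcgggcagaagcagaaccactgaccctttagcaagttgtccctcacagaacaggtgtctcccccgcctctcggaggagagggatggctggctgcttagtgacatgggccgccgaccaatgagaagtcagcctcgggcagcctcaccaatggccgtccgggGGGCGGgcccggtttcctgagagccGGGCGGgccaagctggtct

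The 3 windows had no marked motif in common. Cd53 held 1 PU box (GAGGAA), 39 to 34 bases before the start. Cd9 held 1 match to the NF-kB letters (GGGNN followed by TTNCC), on the minus strand of the window, 229 to 220 bases before the start, and 2 GC boxes (GGGCGG). In Tspan33 there were 2 GC boxes, 44 to 39 and 19 to 14 bases before the start. The motifs differ widely in how common they are. Of 32851 windows of the same length from all genes, 23.3% held the PU box letters, 32.7% the GC box letters and 4.11% the NF-kB letters. G and C made up 45.2% of the Cd53 window, 61.6% of that of Cd9 and 62.4% of that of Tspan33, against a median of 52.4% over all windows. The dinucleotide CG occurred 2, 16 and 13 times in these 3 windows, in that order, against a median of 6. Cd53 thus had a CG-poor start and the other two had CG-rich ones. The E-box letters CANNTG, left in lower case, were in all 3 windows and in 66.2% of all windows. All 10 tetraspanins matched the RefSeq table, with 14 windows between them, since Cd82 and Cd151 have several starts. Over these, 5 of 10 genes had a PU box, 7 of 10 a GC box and 7 of 10 an E-box. No window held the letters of an interferon-stimulated response element (GAAA, NN, GAAA), an Ets-Irf composite (GGAA, NN, GAAA), a gamma-activated site (TTCNNNGAA), an AP-1 site (TGANTCA) or a TATA box (TATAAA), which 2.98%, 2.30%, 7.02%, 6.75% and 12.4% of all windows held. No match shared a base with another, and a match describes letters, not a bound site.

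Library totals were 11868254 to 12570117 counts, and 1 count was worth 0.0789 to 0.0858 CPM, the count scaled to a common library size with TMM factors. Cxcl10, the reported gene, had 3 and 19 counts in the BFP-negative and 149 and 154 in the BFP-positive libraries, in the direction of the labels. The pDC marker list was abundant in every library, at a summed 24411 and 28993 CPM in BFP-negative and 20411 and 19503 CPM in BFP-positive cells. Ly6d alone made up most of each sum, at 17289 and 20947 CPM in BFP-negative and 13612 and 12571 CPM in BFP-positive cells. Monocyte and macrophage markers summed to 657 and 790 CPM in BFP-negative and 1395 and 1546 CPM in BFP-positive cells, with 6 of 11 tested members higher and 2 lower and with Mertk and C1qa at 0 in all libraries. Conventional dendritic cell markers summed to 760 and 752 against 1001 and 1055 CPM, with 5 of 11 tested members higher and 1 lower. Id2 made up the largest part of each sum, at 488 and 419 against 509 and 463 CPM (adjusted p = 0.698 in edgeR's test). By the same test, 7.60% of all tested genes were higher and 3.51% lower. B cell markers went the other way, at a summed 165 and 159 against 112 and 121 CPM, with 3 of 5 tested members lower. Their part in the tetraspanin differences was not tested, and in sorted bulk RNA fewer cells of a type and less RNA per cell cannot be told apart.

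Of the 10 tetraspanins, 3 rose in BFP-positive cells, none fell and 7 did not pass the test, where 7.60% of all tested genes rose and 3.51% fell. The 10 and all gene lists here were chosen with earlier results of these data known, so contrasts with these shares are descriptive only. The test was quasi-likelihood (edgeR), and a gene passed at an adjusted p (Benjamini-Hochberg, 11706 genes) of 0.05. At an unadjusted p of 0.05, 1 member was lower, and DESeq2 called none lower. The median log2 fold change of the 10 was 0.20, against -0.02 over all genes tested. The 2 groups of libraries did not overlap in 7 of the 10, 5 with BFP-positive above and 2 with BFP-positive below, where 54.2% of all tested genes did not overlap, 27.1% in each direction. Together the 10 genes took 0.286% and 0.277% of the counts of the BFP-negative libraries and 0.354% and 0.340% of those of the BFP-positive libraries.

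**Figure D1:**
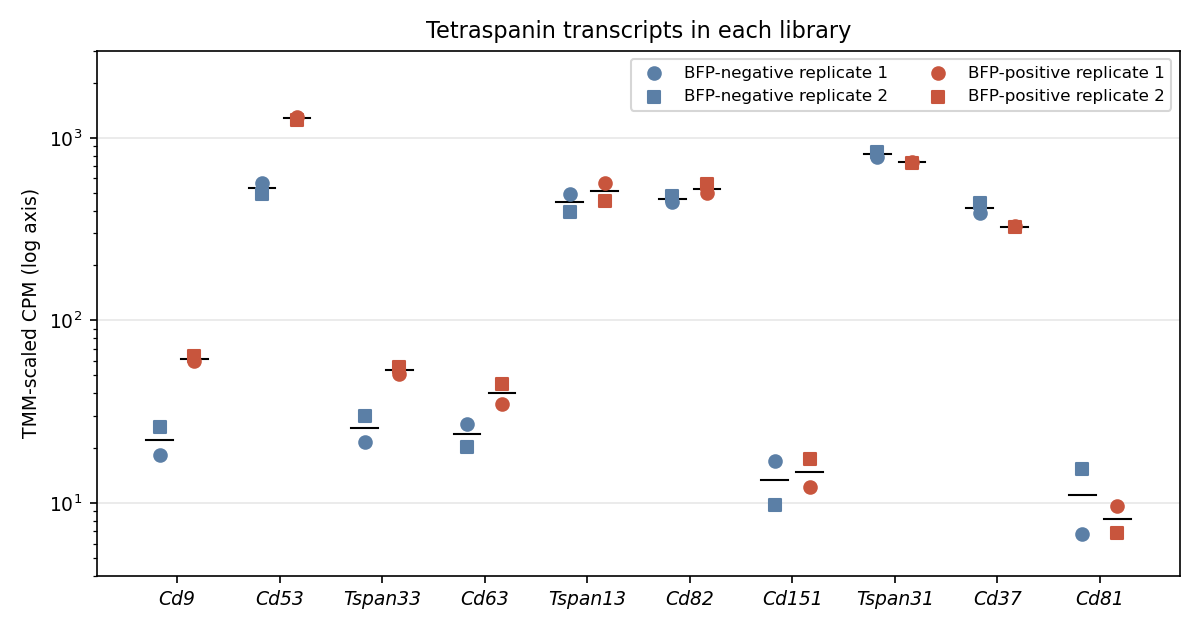
TMM-scaled CPM (log axis) of each tetraspanin in each library, ordered by log2 fold change; circles are replicate 1, squares replicate 2, blue BFP-negative, red BFP-positive, and black lines the mean of 2 libraries. Cd9, Cd53 and Tspan33 stand apart by group, whereas both Cd151 and Cd81 overlap.

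Cd53 encodes a tetraspanin found across leukocytes, and was the most abundant of the 3 that rose. It stood at 563 and 493 CPM in BFP-negative replicates 1 and 2 and at 1304 and 1251 CPM in BFP-positive replicates 1 and 2. Both BFP-positive libraries were far above both BFP-negative ones, and the gap between groups was much wider than that within them. The rise was 2.42-fold, from 528 ± 49.3 to 1277 ± 37.2 CPM (SD, n = 2 libraries per group), with a log2 fold change of 1.27, SE 0.12, and an adjusted p of 0.000119 in edgeR's test. Cd53 (Entrez gene 12508) lies on chromosome 3 from 106758861 to 106790149 on GRCm38, introns included. No exon of another gene shares bases with it in the GENCODE M21 annotation.

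Cd9, which is known for its part in membrane fusion and integrin complexes, showed the largest fold change of the 10. Its level was 18.2 and 25.9 CPM in the BFP-negative and 59.7 and 63.9 CPM in the BFP-positive libraries. The groups did not overlap, and the BFP-positive pair lay closer together than the BFP-negative pair. It rose 2.80-fold, from 22.1 ± 5.45 to 61.8 ± 2.93 CPM (adjusted p = 0.00252 for a log2 difference of 1.48 ± 0.23 SE). Removing BFP-negative 1 gave Cd9 a log2 fold change of 1.26 and removing BFP-negative 2 one of 1.78, both past the threshold. Cd9 (Entrez gene 12527) lies on chromosome 6 from 125460266 to 125494760. Because the libraries do not mark strand, reads from the 218 exonic bases that it shares with the opposite-strand gene Gm26728 in GENCODE M21 cannot be told apart.

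Tspan33 belongs to the TspanC8 subgroup, whose members escort Adam10 to the cell surface, and it is also known as Penumbra from red cell development. Counts corresponded to 21.5 and 30.0 CPM in BFP-negative and 51.0 and 55.8 CPM in BFP-positive cells. Again the groups stood apart, with the BFP-negative pair the more spread. Tspan33 rose 2.08-fold, from 25.7 ± 6.02 to 53.4 ± 3.42 CPM (adjusted p = 0.0147 for a log2 difference of 1.05 ± 0.23 SE). Without BFP-positive replicate 2 the call was lost, at a log2 fold change of 0.99 and an adjusted p of 0.0551, which left Cd53 and Cd9 as the 2 members that rose. Tspan33 (Entrez gene 232670) lies on chromosome 6 from 29694214 to 29718558 and shares no exonic base with another gene.

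Cd63, the endosomal tetraspanin, did not pass. It was at 27.2 and 20.3 CPM in BFP-negative and 35 and 44.8 CPM in BFP-positive cells. The BFP-positive libraries were both above the BFP-negative ones, but each pair was spread widely. The adjusted p was 0.0828 for a log2 fold change of 0.75, SE 0.25. Of the 12 alternatives, Cd63 passed in 1, the fit that left out BFP-negative replicate 1 (log2 difference 0.98). Removing BFP-positive 1 gave a log2 difference of 0.91. Removing BFP-negative 2 or BFP-positive 2 gave smaller ones, of 0.57 and 0.56. Cd63 (Entrez gene 12512) lies on chromosome 10 from 128896231 to 128912822.

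Cd37, a tetraspanin of B cells and antigen-presenting cells, had the lower values in BFP-positive cells. BFP-negative libraries held 387 and 441 CPM and BFP-positive libraries 328 and 324 CPM. The pairs did not overlap, and the BFP-positive pair was nearly identical. The log2 fold change of -0.34, SE 0.12, had an unadjusted p of 0.0191 and an adjusted p of 0.110. With the replicate number as a block, Cd37 passed the test (adjusted p = 0.0299, log2 difference -0.34). That was the only 1 of the 12 alternatives in which Cd37 passed. Over the 12 its log2 fold change ran from -0.43 to -0.23. Cd37 (Entrez gene 12493) lies on chromosome 7 from 45233632 to 45239340.

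Cd82 (also called Kai1), which is known to associate with MHC class II in dendritic cells, was at 444 and 480 CPM in BFP-negative and 498 and 556 CPM in BFP-positive cells. The BFP-positive values were both the higher ones, by little more than the spread within a pair. Its log2 fold change was 0.19, SE 0.12, and it did not pass (adjusted p = 0.385). Cd82 (Entrez gene 12521) lies on chromosome 2 from 93419102 to 93462950.

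Tspan13 was abundant in both groups. It was at 494 and 392 CPM in BFP-negative and 568 and 450 CPM in BFP-positive cells. In both groups replicate 1 was the higher library, and the groups overlapped. The log2 fold change was 0.20, SE 0.15 (adjusted p = 0.483). Tspan13 (Entrez gene 66109) lies on chromosome 12 from 36014555 to 36042478 and shares no exonic base with another gene.

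Tspan31, first known as a gene amplified together with Cdk4 in human sarcomas, had the highest level per length of the 10 in every library. It was at 786 and 837 CPM in BFP-negative and at 739 and 728 CPM in BFP-positive cells. Although the pairs did not overlap, the difference was small. The log2 fold change was -0.15, SE 0.11, and did not pass (adjusted p = 0.475). Tspan31 (Entrez gene 67125) lies on chromosome 10 from 127067287 to 127070972, end to end with Cdk4, a cell cycle kinase gene on the opposite strand. The 2 genes share 2 bases in RefSeq and 641 exonic bases in GENCODE M21, 29.2% of the exonic bases of Tspan31, and libraries without strand cannot divide the reads there. Cdk4 was at 682 and 730 CPM in BFP-negative and 554 and 606 CPM in BFP-positive cells (adjusted p = 0.161 for a log2 difference of -0.28 ± 0.12 SE). The values of Tspan31 may therefore hold Cdk4 reads and are uncertain.

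Cd81 and Cd151 were the low members. Cd81 encodes a broadly expressed surface tetraspanin. It had 84 and 195 counts, or 6.75 and 15.4 CPM, in BFP-negative cells and 112 and 83 counts, or 9.61 and 6.83 CPM, in the BFP-positive libraries. BFP-negative replicate 2 stood above the other 3 libraries. The log2 fold change of -0.43, SE 0.46 (adjusted p = 0.634) turned to 0.30 without that library. Cd151, a partner of laminin-binding integrins, was at 17.0 and 9.70 CPM in BFP-negative and 12.3 and 17.4 CPM in BFP-positive cells. The groups overlapped, and the log2 fold change of 0.15, SE 0.37 (adjusted p = 0.856) turned to -0.17 without BFP-negative replicate 2 and to -0.12 without BFP-positive replicate 2. No direction can be given for either gene. Cd81 (Entrez gene 12520, chromosome 7, 143052750 to 143067930) and Cd151 (Entrez gene 12476, chromosome 7, 141467362 to 141471481) each have another tetraspanin as a near neighbour. Tspan4 starts 3754 bases after Cd151, and Tspan32 ends 33263 bases before Cd81. None of these 4 genes passed the test.

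**Figure D2:**
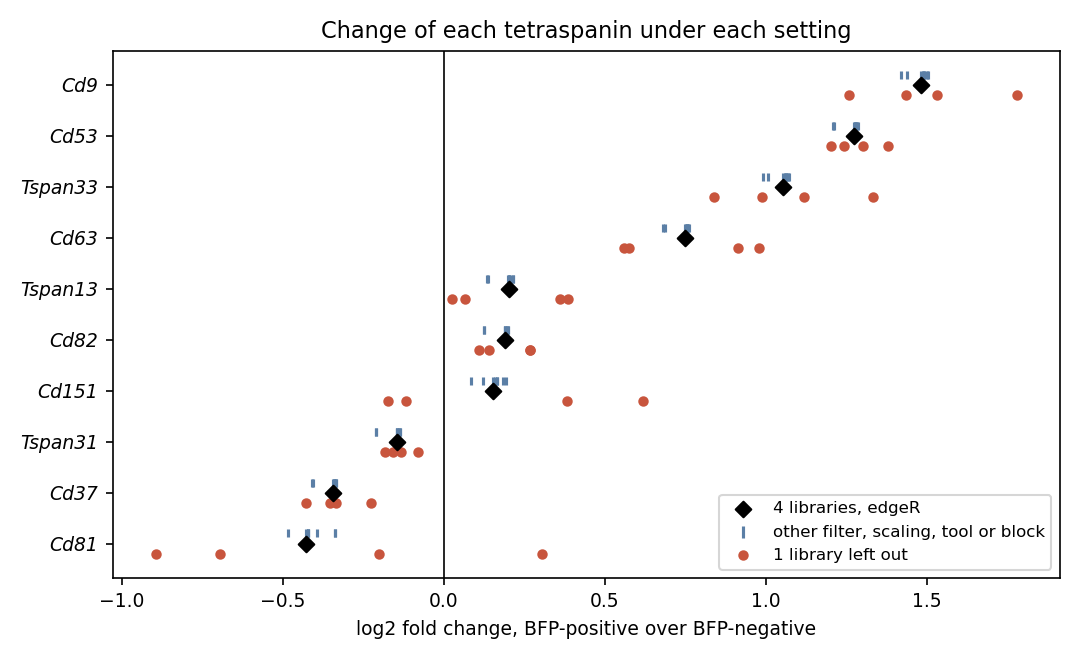
Log2 fold change (BFP-positive over BFP-negative) of each tetraspanin under each setting; diamonds are edgeR with all 4 libraries, blue ticks another filter, scaling, tool or a replicate block, and red points fits with 1 library left out. Cd9, Cd53 and Tspan33 stay at or above 0.84 throughout, while Cd151 and Cd81 fall on both sides of 0.

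Levels were compared between genes on the authors' log2 RPKM scale, which corrects for gene length. The 10 tetraspanins fell into an abundant set of 5 and a scarce set of 5, with no overlap between them. Tspan31, Cd37, Cd53, Cd82 and Tspan13 had log2 RPKM levels from 7.47 to 9.10 in every library, and Cd9, Cd63, Tspan33, Cd151 and Cd81 from 2.13 to 5.70. By the mean of the 4 libraries the order was Tspan31, Cd37, Cd53, Cd82, Tspan13, Cd9, Cd63, Tspan33, Cd151 and Cd81. Of the 9 pairs of neighbours in that order, 6 overlapped in their ranges over the libraries. The ranges stood apart between Tspan31 and Cd37, between Tspan13 and Cd9 and between Tspan33 and Cd151. The rank of Tspan31 is as uncertain as its reads.

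The order itself differed between the groups, most of all for Cd53 and Cd37. In both BFP-negative libraries Cd53 ranked 5 among the 10, at 208 and 178 RPKM, behind Tspan31, Cd37, Cd82 and Tspan13. In both BFP-positive libraries it ranked 2, at 457 and 434 RPKM. Cd37 went from rank 2 in both BFP-negative libraries to ranks 5 and 4 in the BFP-positive ones, below Cd82. The share of Cd53 in the summed RPKM of the 10 genes was 12.7% and 10.9% in BFP-negative and 24.5% and 24.1% in BFP-positive cells. The share of Cd37 was 19.9% and 22.3% against 14.1% and 14.2%. Cd9 took 0.965% and 1.35% against 2.64% and 2.89%, so it stayed a small part of the tetraspanin RNA in both groups. Among all tested genes the log2 RPKM level of Cd9 was at percentile 64.0 and 70.0 in BFP-negative and 82.1 and 82.8 in BFP-positive libraries.

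**Figure D3:**
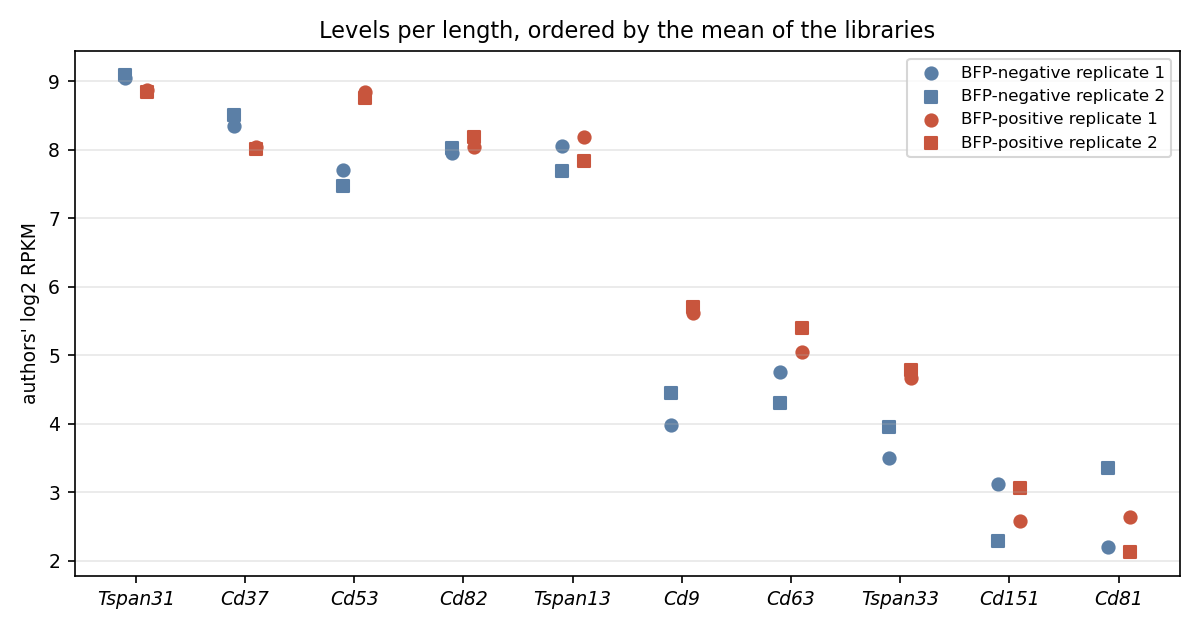
The authors' log2 RPKM level of each tetraspanin in each library (blue BFP-negative, red BFP-positive; circles replicate 1, squares replicate 2), ordered by the mean of the 4 libraries. A gap without points separates the 5 abundant genes, at 7.47 and up, from the 5 scarce ones, at 5.70 and below; Cd53 moves from the lower to the upper part of the abundant set.

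Replicates differed most for Cd81 and Cd151. Between BFP-negative replicates the log2 difference in CPM was 1.19 for Cd81 and 0.81 for Cd151, from 0.42 to 0.51 for Cd9, Cd63 and Tspan33, 0.33 for Tspan13 and from 0.09 to 0.19 for the other abundant members. Between BFP-positive replicates it was 0.49 for Cd81, 0.50 for Cd151, 0.35 for Cd63, 0.34 for Tspan13, 0.16 for Cd82, 0.13 for Tspan33, 0.10 for Cd9 and from 0.02 to 0.06 for Tspan31, Cd37 and Cd53. The log2 fold change of Cd82, 0.19, was above its own replicate differences of 0.11 and 0.16. That of Tspan13, 0.20, was below its own of 0.33 and 0.34. Among 5754 genes with a mean of at least 20 CPM, the 3 whose mean-centred log2 CPM over the 4 libraries lay closest to that of Cd53 were Hist1h1e, a linker histone gene, Phf11b, a PHD finger gene, and Pclaf, a PCNA-binding factor of S phase. Their summed absolute log2 differences from Cd53 were 0.14, 0.16 and 0.17, over 4 libraries only. Hist1h1e went from 21.3 ± 3.27 to 51.6 ± 1.94 CPM, Phf11b from 116 ± 5.37 to 279 ± 16.2 CPM and Pclaf from 82.4 ± 6.78 to 199 ± 20.5 CPM. Histone genes have near-identical copies, so the value of Hist1h1e is uncertain.

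Beyond the 10, the table held 21 other tetraspanin genes, of which 10 were tested. Of these 1 rose and none fell, where 7.60% of all tested genes rose and 3.51% fell. Their median log2 fold change was 0.39. The gene that rose was Tspan2, at 2.89 and 2.68 CPM in BFP-negative and 13.3 and 7.90 CPM in BFP-positive cells (adjusted p = 0.0288 for a log2 difference of 1.92 ± 0.48 SE). The 2 BFP-positive libraries were both higher but far apart, and without BFP-positive replicate 1 the call was lost (adjusted p = 0.262, log2 difference 1.5). Its call was lost too with limma on the authors' log2 RPKM (adjusted p = 0.0797), as were those of Itga5, Cx3cl1, Cd44, Flot1, Zdhhc6, Clec4a2 and Cadm1, all described further on (adjusted p = 0.0512 to 0.0783). Tspan2 shares 88 exonic bases with the opposite-strand gene Tspan2os, which had 9 counts in BFP-positive replicate 1 and none elsewhere. Of the 11 genes that were not tested, Tspan1, Tspan7, Tspan10, Tspan11, Tspan15, Upk1a, Upk1b and Prph2 had no count in any library. A count of 0 allows up to 3 counts, or 0.237 to 0.257 CPM, so a lower level of these 8 could not be seen (counting error only). Tspan8, Tspan12 and Tspan18 had at most 20 counts in a library.

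The TspanC8 subgroup, to which Tspan33 belongs, also holds Tspan5, Tspan10, Tspan14, Tspan15 and Tspan17. Among these the most abundant by count was Tspan14, at 89.8 and 60.6 CPM in BFP-negative and 88.0 and 129 CPM in BFP-positive cells (adjusted p = 0.194 for a log2 difference of 0.53 ± 0.23 SE). The groups overlapped. Tspan17 had 5 counts in each BFP-negative library and 36 and 42 in the BFP-positive ones, and lay just outside the threshold (adjusted p = 0.0576 for a log2 difference of 3.01 ± 0.89 SE). Tspan5 was at 12.6 and 5.13 against 11.5 and 9.22 CPM and did not pass (adjusted p = 0.825). Of the 6 genes of the subgroup, Tspan10 and Tspan15 had no count in any library and were not tested. Among those tested, Tspan33 alone was called. The other genes of the subgroup were named here after their values were seen.

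Adam10, the protease that TspanC8 proteins carry, was at 12.2 and 15 CPM in BFP-negative and 13.8 and 10.5 CPM in BFP-positive cells and did not pass (adjusted p = 0.828 for a log2 difference of -0.16 ± 0.33 SE). In the list of Adam10, the related protease Adam17 and their known substrates, 2 of 9 tested genes rose and 1 fell. The median log2 fold change was -0.16, and 7.60% of all tested genes rose and 3.51% fell. Cxcl16, a membrane-bound chemokine, rose 5.25-fold, from 52.1 and 86.9 to 328 and 401 CPM (adjusted p = 0.000127 for a log2 difference of 2.39 ± 0.22 SE). Cx3cl1, the other membrane-bound chemokine, was at 0 in both BFP-negative libraries and at 1.72 and 1.98 CPM in the BFP-positive ones. That is at least 7.73-fold higher, taking 3 counts per BFP-negative library as the floor (adjusted p = 0.0218). Its call was lost on removing BFP-negative 1, BFP-negative 2 or BFP-positive 2 (adjusted p = 0.0535, 0.0561 and 0.0646). The gene that fell was Cd44, the hyaluronan receptor, at 460 and 375 against 306 and 289 CPM (adjusted p = 0.0438 for a log2 difference of -0.49 ± 0.14 SE). The call of Cd44 was lost on removing BFP-negative 1, BFP-positive 1 or BFP-positive 2 (adjusted p = 0.200, 0.128 and 0.214).

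Integrins are the best known tetraspanin partners. Of 8 tested integrin genes, 2 rose, 1 fell and 5 did not pass, with a median log2 fold change of 0.35. The shares over all tested genes were 7.60% that rose and 3.51% that fell. Itgb7, the beta chain of gut-homing integrins, went from 171 and 206 CPM to 309 and 436 CPM (adjusted p = 0.00568 for a log2 difference of 0.98 ± 0.18 SE). Itga5, a chain of the fibronectin receptor, went from 15.3 and 19.5 to 31.1 and 47.5 CPM (adjusted p = 0.0222 for a log2 difference of 1.18 ± 0.28 SE). For Itga5 the call was lost on removing BFP-negative 1 or BFP-positive 2 (adjusted p = 0.0554 and 0.179). Itgal, the alpha chain of LFA-1, fell 2.16-fold, from 126 and 162 to 74.8 and 58.8 CPM (adjusted p = 0.00423). Itga3 and Itga6, which encode chains of laminin-binding integrins joined by Cd151, had at most 2.37 and 1.32 CPM in a library.

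Of 9 tested genes in the list of other surface partners, 3 rose and 3 fell, with a median log2 fold change of -0.30. Among all tested genes 7.60% rose and 3.51% fell. Clec7a, the gene of Dectin-1, which Cd37 binds in mouse macrophages, rose from 0.562 and 2.44 to 17.6 and 26.9 CPM (adjusted p = 0.00212). The groups of Clec7a stood far apart. Cd36, a scavenger receptor that also joins tetraspanins, was at 517 and 402 against 310 and 263 CPM (adjusted p = 0.0169 for a log2 difference of -0.68 ± 0.15 SE). That call was lost on removing BFP-negative 1 or BFP-positive 2 (adjusted p = 0.0616 and 0.108). Of the B cell markers, Cd79a and Blk fell, with log2 fold changes of -2.86 and -1.04. Blk lost its call on removing BFP-negative 1 or BFP-positive 1 (adjusted p = 0.0707 and 0.104).

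Of 19 tested genes of extracellular vesicle formation, the pathway that Cd63, Cd9 and Cd81 are used to mark, 5 rose and none fell. Their median log2 fold change was 0.42. Over all tested genes 7.60% rose and 3.51% fell, with a median of -0.02. Rab31, a small GTPase of endosomes, had 0 and 0.315 CPM in BFP-negative and 13.7 and 17.8 CPM in BFP-positive cells (adjusted p = 0.000480). Pld2, a phospholipase D, went from 2.97 and 3.39 to 10.2 and 14.8 CPM (adjusted p = 0.0160 for a log2 difference of 1.97 ± 0.43 SE), a call lost without BFP-positive replicate 2 (adjusted p = 0.141). Rab35, another small GTPase of endosomal recycling, went from 12.9 and 12.9 to 29.9 and 26.6 CPM (adjusted p = 0.0214 for a log2 difference of 1.13 ± 0.26 SE). Rab35 lost its call without either BFP-positive replicate (adjusted p = 0.114 and 0.0505). Flot1, a raft protein, was at 122 and 135 against 202 and 183 CPM (adjusted p = 0.0247), and did not pass on removing BFP-negative 1, BFP-positive 1 or BFP-positive 2 (adjusted p = 0.0707, 0.154 and 0.0596). Of 10 tested enzymes that add or remove palmitate, 1 rose and none fell, with a median log2 fold change of 0.07. It was the palmitoyltransferase gene Zdhhc6, at 39.4 and 36.7 against 58.1 and 65.4 CPM (adjusted p = 0.0395 for a log2 difference of 0.70 ± 0.19 SE), and that call needed all 4 libraries (adjusted p = 0.0618 to 0.205 with 1 left out) and did not hold with library totals alone (adjusted p = 0.0560). Zdhhc2, which palmitoylates Cd9 and Cd151 in human cells, had at most 3 counts in a library and was not tested.

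**Figure D4:**
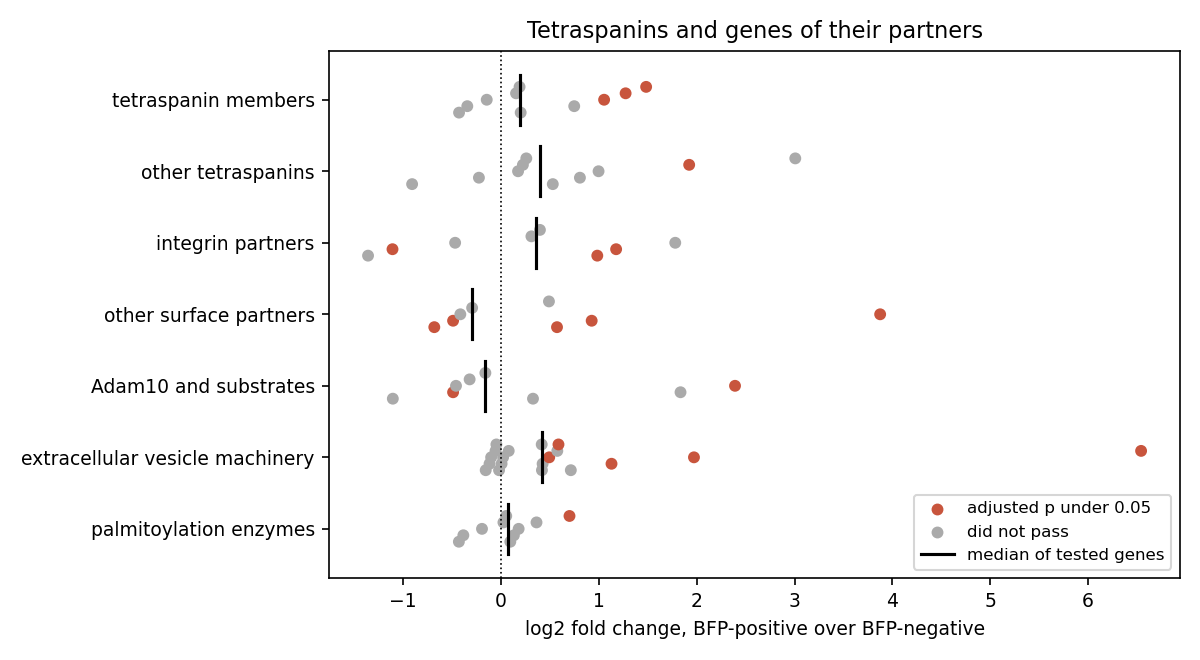
Log2 fold change (BFP-positive over BFP-negative) of each tested gene in the tetraspanin set and in 6 lists of family members and partners; red points passed the test, grey points did not, and black lines are medians of the tested genes. Genes with a group at 0, such as Cx3cl1, are left out of the points; the tetraspanin median of 0.20 lies between that of the integrin partners at 0.35 and that of the palmitoylation enzymes at 0.07.

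Cells other than pDCs also use some of these tetraspanins, so marker levels are given beside them. Several genes of the monocyte and macrophage list rose with Cd53, Cd9 and Tspan33. Cd14 went from 9.80 and 10.3 to 99.4 and 95.9 CPM and Csf1r from 0.241 and 0 to 22.7 and 32.8 CPM. Ly6c2 went from 299 and 379 to 777 and 897 CPM and Ccr2 from 45.6 and 56.1 to 172 and 138 CPM. Among conventional dendritic cell markers, Clec4n went from 0 and 0.552 to 10.9 and 16.4 CPM, Clec4a2 from 0.884 and 0 to 12.9 and 13.5 CPM and Naaa from 94.5 and 104 to 173 and 227 CPM, and Cadm1 fell from 27.2 and 30.7 to 14.6 and 13.1 CPM. The call of Cadm1 was lost on removing BFP-negative 2, BFP-positive 1 or BFP-positive 2 (adjusted p = 0.0866, 0.0672 and 0.111), and that of Clec4a2 with DESeq2 (adjusted p = 0.102). Of the monocyte and macrophage list, 2 members went the other way, among them Adgre1, the gene of the macrophage antigen F4/80, which fell from 24.8 and 35.5 to 6.69 and 10.2 CPM (adjusted p = 0.00574). The part of these cells in the tetraspanin values was not tested. Of the 14 pDC markers, 3 rose and 4 fell, where 7.60% of all tested genes rose and 3.51% fell. Ccr9 fell from 915 and 975 to 519 and 501 CPM, Cox6a2 from 203 and 199 to 121 and 81.2 CPM and Ly6d from 17289 and 20947 to 13612 and 12571 CPM, while Cd300c was at 111 and 126 against 183 and 183 CPM. Ly6d lost its call without BFP-positive replicate 2 (adjusted p = 0.107), and Cd300c on removing BFP-negative 1, BFP-positive 1 or BFP-positive 2 (adjusted p = 0.0587, 0.0800 and 0.0807).

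Markers of other cells known for Cd9, Cd63 or Tspan33 are given for the same reason. Platelet markers, where Cd9 is abundant, summed to 1.37 to 5.02 CPM, with Gp1bb and Gp9 at 0 in all libraries. Pf4, the platelet chemokine, had 1.45 and 1.10 CPM in BFP-negative and no count in BFP-positive cells, at least 5.06-fold lower with 3 counts per BFP-positive library as the floor. That call (adjusted p = 0.0383) needed all 4 libraries (adjusted p = 0.0634 to 0.156 with 1 left out) and did not hold without the filter on low counts or with the replicate block (adjusted p = 0.0914 and 0.0734). Mast cell and basophil markers, cells in which Cd63 marks granules, summed to 16.7 and 30.4 CPM in BFP-negative and 17.3 and 32.5 CPM in BFP-positive cells, mostly Kit, with Ms4a2 at 0. Erythroid markers summed to at most 6.11 CPM, with Klf1 at 0, and neutrophil markers to at most 28 CPM, with Elane at 0. T and NK cell markers summed to at most 10.8 CPM, with Cd3g, Gzma and Prf1 at 0. The members with the smallest p in these lists, Kit, Alas2, S100a8 and Klrb1c, did not pass (adjusted p = 0.579, 0.292, 0.358 and 0.523).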

How the data were processed

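The authors deposited raw counts per gene for the 4 libraries and, per library, log2 RPKM values. Reads were handled with featureCounts, Subread and limma on GRCm38 (mm10), per the submitters' processing notes; the sources used here give no versions, strand setting or rule for multi-mapping reads. cDNA was made with SMART-Seq v4, per the labels' protocols, and marks neither strand nor molecules. The deposited log2 RPKM equalled the counts scaled by library total and a fixed gene length, within 0.0013 (log2) in 5694 genes with over 200 counts in every library.

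Genes were kept by filterByExpr (minimum count 10, minimum total 15), leaving 11706, and scaled by TMM. The quasi-likelihood test of edgeR 4.0.16, run in R 4.3.3 on a model of group alone that leaves 2 residual degrees of freedom, compared BFP-positive with BFP-negative. Its p-values were two-sided and adjusted by Benjamini-Hochberg across every tested gene. SE is the log2 fold change divided by the square root of F. The scripts were tested on simulated data. DESeq2 1.42.0, limma 3.58.1 (voom and log2 RPKM), other scalings, no filter, robust dispersion, a replicate block and each library left out were alternatives. The 10 members and the lists were chosen with earlier results of these data known. The text names all members, up to 4 called genes of each list, or its smallest p if none passed, and the 3 genes most like the called member of smallest p. Other genes of the lists were named after their values were seen. A few genes of the lists are not reported here.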

Additional observations from a re-analysis of the deposited data

How the results depend on the processing

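Over 12 alternatives, Cd53 and Cd9 passed in 12 and Tspan33 in 11; the number of members that rose was 2 to 4 with 1 library left out. With the replicate block, 1 member was lower (Cd37). Of all genes, 1140 were then higher and 760 lower, against 890 and 411 without it. Same-numbered libraries share a code in the titles whose meaning is not given, so they were not taken as pairs. Their deviations correlated at 0.06 over all tested genes, scarce ones included, which cannot decide whether they are pairs. With each library left out in turn, log2 fold changes that changed sign ran from -0.90 to 0.30 for Cd81 (0.30 without BFP-negative replicate 2), from -0.17 to 0.62 for Cd151 (-0.17 and -0.12 without BFP-negative and BFP-positive replicate 2), from -1.52 to 0.33 for Klrb1c (0.33 without BFP-negative replicate 1) and from -0.068 to 0.64 for Kit (-0.068 without BFP-positive replicate 2). With 1 library left out, 547 to 926 of all genes were higher (890 with all) and 220 to 409 lower; in the other lists 16 to 26 genes were higher (28 with all) and 9 to 12 lower (14 with all). The low ends came without BFP-positive replicate 2 (547, 16 and 9) and without BFP-positive replicate 1 (220), and the lone library of a group is there assumed to vary like the others. On the authors' log2 RPKM, 17 genes of the other lists were higher; the cause was not tested. By library totals alone, 813 were higher and 574 lower. CPM per kb was not run, since the files give no lengths. Of the members, Cd81 and Cd151 had the fewest counts and the widest gaps between BFP-negative replicates; other depths were not tested.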

Other observations

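Among markers of mast cells and basophils, chosen here after their values were seen, Cpa3 had no count in either replicate 1 library and 2.44 and 3.21 CPM in BFP-negative and BFP-positive replicate 2. Mcpt8 had no count in either replicate 1 library either, with 77 counts in BFP-negative and 8 in BFP-positive replicate 2. Fcer1a had 27 and 3 counts in the same replicate 2 libraries and none in replicate 1.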
